A study of Mus musculus with 3 samples.

Results

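Cortical interneurons, sorted through a reporter that past somatostatin expression switches on, were compared on either side of birth, at E16.5 (embryonic) and P1 (postnatal, 1 day). The cells were chosen from the deposited matrices by a fixed rule: more than 700 genes detected, under 10% of unique molecular identifiers (UMIs, which count RNA molecules) from mitochondrial genes, at least 1 UMI of Lhx6, and 0 UMIs of Nos1 and Neurod6. Lhx6 is a transcription factor of neurons born in the medial ganglionic eminence (MGE), Nos1 marks the long-range projecting (LRP) cells that also express somatostatin, and Neurod6 marks excitatory neurons. The rule took 4849 of the 8918 cells deposited for the 2 libraries, 3255 at E16.5 and 1594 at P1, out of 12324 cells in the series. It did not ask for Sst, the somatostatin gene, of which 2484 of the 3255 and 1135 of the 1594 cells had a UMI. All animals carried Sst-Cre, which drives recombination in cells that have made somatostatin, and the RCEloxP reporter, which then labels the cell with GFP for good; GFP+ and DAPI negative cells of the neocortex were sorted. Tissue of 6 animals was pooled at E16.5 and of 3 animals at P1, and each pool gave 1 library, so that differences between animals cannot be seen and no difference between the stages can be tested. The suspension was cleared of myelin with percoll at P1 but not at E16.5, a step that cannot be told apart from age. The P5 library (3 animals, percoll and an added trypsin and DNase digestion), is used to show where P1 levels lie and, as an alternative, in place of P1.

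Interneurons of the MGE stop dividing in the ventral telencephalon, migrate tangentially into the cortex and settle in its layers around birth. Over the following days they lose migration machinery, form inhibitory synapses, receive glutamatergic input and acquire the ion channels of mature neurons. Martinotti and non-Martinotti cells are the main classes of somatostatin interneurons in the cortex.

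Counts were summed per library and scaled to CPM (UMIs of a gene per 1000000 UMIs) without mitochondrial and ribosomal protein genes, which gave 18271146 UMIs at E16.5 and 6892034 at P1, so that 1 UMI is worth 0.0547 and 0.145 CPM. A ratio is P1 over E16.5 on the log2(CPM + 1) scale, which understates the change of low genes; a fold is the plain ratio of CPM. The rule for the cells used the genes Lhx6, Nos1 and Neurod6, and the comparison itself defines what is described, so all values are a description of 2 libraries with no test. Intervals in parentheses are 95% exact Poisson (levels), conditional (folds) or Clopper-Pearson (shares) intervals and cover counting error only, not variation between animals or preparations.

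The markers were found in the chosen cells at both stages, though not all were confined to them. Gad2, an enzyme that makes GABA, stood at 350 CPM at E16.5 and 448 CPM at P1, and the MGE transcription factors Sox6 and Satb1 at 388 and 354 CPM and at 682 and 732 CPM. The inhibitory neuron markers Dlx5 (171 and 76.2 CPM) and Dlx6os1 (257 and 155 CPM) were lower at P1. With every cell thinned to 2000 UMIs, 49.2% of cells at E16.5 and 57.2% at P1 had a Gad2 UMI (78.5% and 73.5% at full depth), against 0.00% of 39 and 10.3% of 29 sorted cells with Neurod6 and without Lhx6, which should lack the gene. Sst itself was detected in 67.6% and 64.3% of thinned interneurons (76.3% and 71.2% at full depth). In the Neurod6 cells it was in 10.3% at either stage (39.0% and 25.7% at full depth). Satb1 was in 64.0% and 56.2% of thinned interneurons but also in 25.6% and 24.1% of the Neurod6 cells. At full depth these Satb1 shares were 81.1% and 64.4% against 58.5% and 37.1%. The 11 excitatory markers summed to 52.2 and 144 CPM, of which the netrin receptor Unc5d made 50.4 and 138 CPM, while Neurod2, Tbr1, Slc17a6 and Slc17a7 lay at or below 1.16 CPM in both libraries. The 13 markers of other inhibitory neurons (caudal and lateral eminence) summed to 265 and 296 CPM, the 9 of progenitors to 384 and 352 CPM, with Sox2 alone at 310 and 236 CPM, and the 8 of oligodendrocytes to 36.4 and 41.8 CPM. The 8 microglial markers summed to 0.602 and 0.871 CPM, and the 11 endothelial and mural markers to 6.13 and 3.77 CPM. Long-range projection markers were not absent, and the 8 listed summed to 359 and 416 CPM. Of the 7 measured, Pou3f2 (10.3 and 59.1 CPM) and Lypd1 (2.46 and 7.84 CPM) were at least 2-fold higher at P1, and Dach1 (10.7 and 2.90 CPM) lower. Cells with a UMI of Chodl, Pou3f2, Dach1 or Lypd1 made up 7.93% of the interneurons at E16.5 and 18.4% at P1, and without them 1122 genes were higher and 388 lower in place of the 1087 and 359 given below.

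Both libraries have features that bear on the comparison. The interneurons had a median of 5807 UMIs at E16.5 and 3811 at P1, and median mitochondrial shares of 4.04% and 6.26%. The rule kept 82.4% (81.1 to 83.5) of quality-filtered cells at E16.5 and 63.7% (61.8 to 65.6) at P1, but 56.5% (54.9 to 58.1) and 61.1% (58.8 to 63.3) once all cells were thinned to 2000 UMIs, so no order is read from these shares. Nos1 removed 49 Lhx6-positive cells at E16.5 and 360 at P1. Just inside the rule, 748 and 334 cells had a single Lhx6 UMI; just outside it, 588 and 437 cells had none, with Gad2 at 376 and 430 CPM against 368 and 477 CPM in the cells with 1 UMI. The E16.5 pool held female cells, with Xist at 1394 CPM, whereas P1 had 4 Xist UMIs and P5 0.615 CPM, so the sex of the animals goes with the stage; the summed Y-linked genes stood at 350, 590 and 362 CPM. E16.5 and P1 shared 3 cell barcodes, 1 of them among the interneurons.

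P1 interneurons had higher levels of many synaptic adhesion, receptor and channel genes and lower levels of Cdkn1c, Rprm, Fos and several tubulins. Of 10462 genes with a mean of at least 5 CPM, 1087 (10.4%) were at least 2-fold higher at P1 and 359 (3.43%) at least 2-fold lower; 164 and 32 passed 4-fold. The median ratio of all these genes was 0.16, and scaling by the median ratio in place of the total moved every gene down by 0.16 and gave 792 higher and 602 lower. Higher genes were then 56.8% rather than 75.2% of all genes past 2-fold. Values below should be read against that median of 0.16, and a gene between 0 and 0.16 changes direction with the scaling. Counts in the gene lists below should likewise be read against the 10.4% and 3.43% of all genes.

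**Figure D1:**
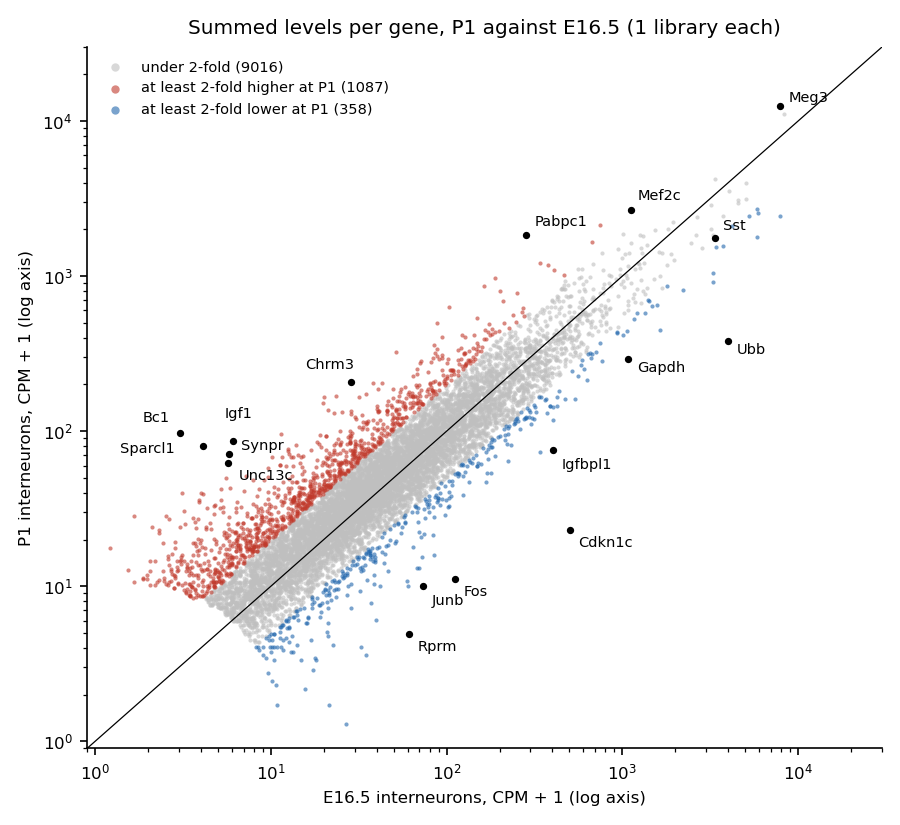
Summed level of each gene in E16.5 (horizontal) and P1 (vertical) interneurons, as CPM + 1 on log axes, 1 library per stage, Xist left out. Red points are the 1087 genes at least 2-fold higher at P1 and blue points those at least 2-fold lower; Cdkn1c, Rprm and Ubb lie furthest below the line of equality and Bc1 and Sparcl1 furthest above it among the labelled genes.

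Among genes that reached 50 CPM, the noncoding RNA Bc1, described with the genes that set P1 apart, had the highest ratio, followed by Sparcl1, Igf1, Synpr and Unc13c. Sparcl1 (chromosome 5, 104079111 to 104113733, minus strand), a secreted protein that promotes excitatory synapses, stood at 3.12 CPM at E16.5, 78.6 CPM at P1 and 140 CPM at P5. It was 25.2-fold higher at P1 (19.2 to 33.7). Sparcl1 is also abundant in astrocytes; the 9 astrocyte markers, Sparcl1 among them, summed to 54.0 and 123 CPM. Aldh1l1, Aqp4, Gfap and Gja1 had 0 UMIs at both stages, which allows up to 0.164 CPM at E16.5 and 0.435 CPM at P1, Slc1a3 had 0.493 and 0.725 CPM, and the glutamate transporter Slc1a2 stood at 47.6 and 37.9 CPM. The part of astrocyte RNA in the Sparcl1 values was not tested. Igf1 (chromosome 10, 87858265 to 87937042, plus strand), a growth factor that interneurons secrete, stood at 5.09, 85.9 and 211 CPM at the 3 ages and was 16.9-fold higher at P1 (13.5 to 21.2). Synpr, a synaptic vesicle membrane protein, stood at 4.76, 69.9 and 248 CPM (14.7-fold, 11.7 to 18.7), and Unc13c, a vesicle priming factor, at 4.71, 61.2 and 153 CPM (13-fold, 10.3 to 16.6). For these 4 genes P5 lay above P1.

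Shisa6, an auxiliary subunit of AMPA receptors, stood at 19 CPM at E16.5 and 165 CPM at P1, 8.66-fold higher (7.68 to 9.80). Lypd6, which binds nicotinic receptors, stood at 18.7 and 151 CPM, and Chrm3, a muscarinic acetylcholine receptor, at 27.5 and 207 CPM (7.54-fold, 6.80 to 8.36). Chrm3 was at 87.7 CPM at P5, below P1, whereas Lypd6 was at 357 CPM. Gda, a guanine deaminase that binds postsynaptic scaffolds, stood at 50.2 and 324 CPM, and Add3, a spectrin-binding cytoskeletal protein, at 6.24 and 50.1 CPM. B230209E15Rik, a gene model without an assigned role, stood at 10.5 and 94.9 CPM. All of these genes were higher at P1 in both the summed counts and the share of cells with a UMI, which come from the same UMIs.

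The share of cells with a UMI at equal depth comes from the same UMIs that ranked these genes. It went the same way and is not a second measure of the change. Igf1 was detected in 0.849% of thinned cells at E16.5 and 11.4% at P1 (1.87% and 19.2% at full depth), with 7.69% of the 39 Neurod6 cells at E16.5 and 0.00% of the 29 at P1 (9.76% and 8.57% at full depth). Synpr was detected in 0.783% and 8.60%, and Unc13c in 0.588% and 7.47%, both with 0.00% of Neurod6 cells at either stage (2.44% and 2.86% at full depth for Synpr, 4.88% and 5.71% for Unc13c). Chrm3 went from 5.75% to 31.5% of cells, with 10.3% of Neurod6 cells at P1. Sparcl1 was in 0.392% and 9.82% of interneurons but also in 13.8% of Neurod6 cells at P1, so the P1 share is not above that of cells of another type. Bc1 (11.7% against 20.7%), Pabpc1 (95.3% against 96.6%), Lypd6 (16.5% against 17.2%), B230209E15Rik (13.6% against 17.2%), Add3 (8.93% against 24.1%) and B930036N10Rik (12.7% against 13.8%) were likewise at or below the share in Neurod6 cells, so that these shares are not read as a difference particular to interneurons. The 29 Neurod6 cells make that reference coarse.

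**Figure D2:**
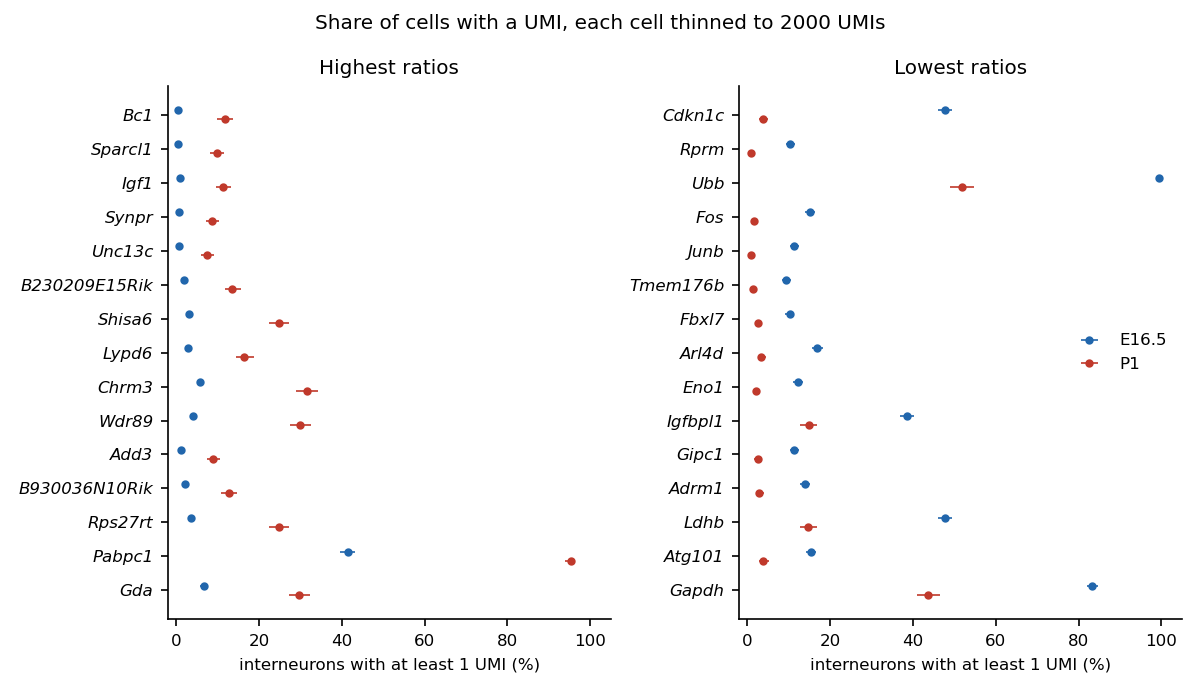
Share of interneurons with at least 1 UMI (horizontal, %) at E16.5 (blue, 3063 cells) and P1 (red, 1232 cells), each cell thinned to 2000 UMIs, for the 15 highest and 15 lowest ratios among genes reaching 50 CPM. Bars are 95% Clopper-Pearson intervals over the cells of 1 library per stage. The genes were chosen by their ratio in these same cells, so a gap between the stages follows from the choice. Cdkn1c was in 47.7% and 3.73% of cells and Igf1 in 0.849% and 11.4%.

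The opposite end was led by Cdkn1c (chromosome 7, 143458339 to 143461050, minus strand), an imprinted inhibitor of the cell cycle. It stood at 502 CPM at E16.5, 22.1 CPM at P1 and 4.06 CPM at P5, and was 22.7-fold lower at P1 (19.4 to 26.9). It was detected in 47.7% of thinned cells at E16.5 and 3.73% at P1, with 33.3% and 10.3% of Neurod6 cells. Rprm, which halts the cycle at G2, stood at 59.9, 3.92 and 1.23 CPM (15.3-fold lower at P1, 10.5 to 23.3), although its share was larger in the Neurod6 cells (56.4% and 24.1%) than in the interneurons (10.4% and 0.893%). Igfbpl1, a protein of newborn neurons, stood at 402, 74.7 and 5.04 CPM (5.38-fold lower, 4.92 to 5.89). Its share went from 38.6% to 14.8% of thinned interneurons and from 74.4% to 17.2% of the Neurod6 cells. Its fall is thus not read as particular to interneurons. Tmem176b, a membrane protein, stood at 59.3, 9.0 and 5.04 CPM, and Arl4d, a small GTPase, at 83.4, 14.8 and 6.64 CPM. Cdkn1c, Rprm, Igfbpl1, Tmem176b and Arl4d were all lower again at P5 than at P1.

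Growth cone and microtubule genes split. Of 30 measured genes, 1 was at least 2-fold higher and 6 lower (median ratio -0.07). The tubulins of newborn neurons were low at P1: Tuba1a stood at 7868 CPM at E16.5 and 2437 CPM at P1 (3.23-fold lower, 3.18 to 3.28), Tubb2b at 5827 and 1782 CPM, and Tubb2a at 1477 and 639 CPM. Tuba1a and Tubb2a have near-identical copies between which reads could be split. Stmn1, which destabilizes microtubules, stood at 5865 and 2694 CPM. Gap43, a growth cone protein, went the other way, from 671 to 1661 CPM (2.48-fold higher, 2.41 to 2.54), and Basp1 (4016 and 3550 CPM) and Dcx (1094 and 1415 CPM), a microtubule protein of migrating neurons, stayed within 2-fold. Of 14 genes of the mature axon cytoskeleton, Map1a (29.2 and 79.5 CPM) and Mapk10 were at least 2-fold higher and Ina (766 and 282 CPM), the internexin filament, lower.

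Of 34 measured synaptic adhesion genes, 21 were at least 2-fold higher and 0 lower, with a median ratio of 1.16, next to 1.09 for the GABA-A receptor subunits. The order of these lists depends on the filter: with a minimum of 20 CPM the medians were 1.12 and 1.53. Cadm2, a synaptic cell adhesion molecule, stood at 102 CPM at E16.5, 632 CPM at P1 and 1298 CPM at P5 (6.20-fold higher at P1, 5.88 to 6.55). Ncam2 stood at 11.5, 75.2 and 135 CPM, and Cdh9, a cadherin, at 18.1, 92.9 and 124 CPM. Ntm, a GPI-anchored adhesion protein, stood at 339, 1215 and 1444 CPM. The GABA synapse organizer Nlgn2 was at 95.6 and 205 CPM. Cntn5 (44.7 and 23.2 CPM), Cntnap4 (62.8 and 52.5 CPM) and Kirrel3 (54.4 and 47.7 CPM) were the members with a ratio below 0, to which scaling by the median ratio added Ncam1.

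**Figure D3:**
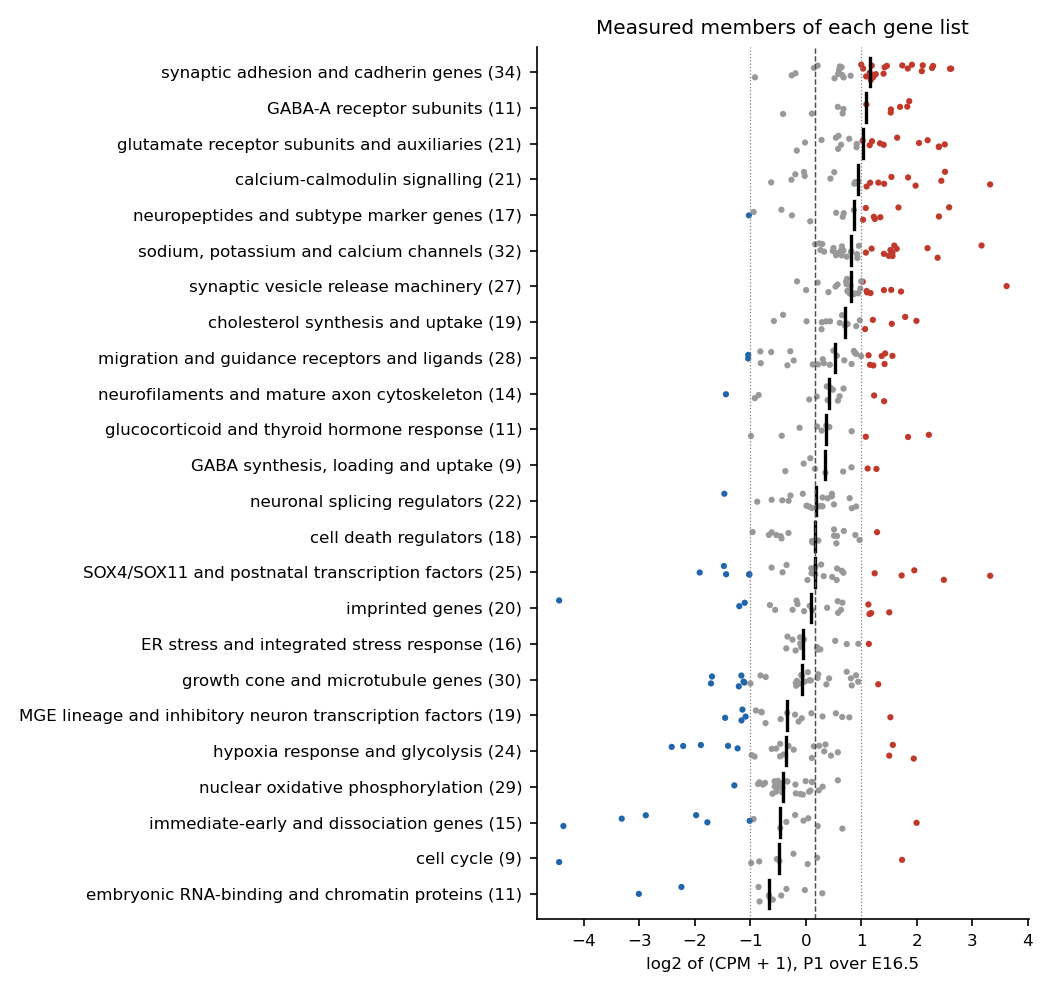
Ratio of P1 over E16.5 on the log2(CPM + 1) scale (horizontal) for every measured member of 24 gene lists, with the number measured in brackets and lists ordered by their median (black bars). Red and blue points lie past 2-fold (dotted lines), the dashed line is the median of all genes at 0.16, and the medians run from 1.16 for synaptic adhesion genes to -0.66 for embryonic RNA-binding and chromatin proteins.

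Many receptor genes for both transmitters were higher at P1. Of 11 measured GABA-A receptor subunits, 6 were at least 2-fold higher and 0 lower (median 1.09). Gabrg3 stood at 39.0 CPM at E16.5 and 145 CPM at P1, Gabrb1 at 17.3 and 64.3 CPM, and Gabra5 at 17.1 and 57.7 CPM. Gabra2, a subunit of immature receptors, was at 153 and 115 CPM. Of 21 glutamate receptor genes, 11 were at least 2-fold higher and 0 lower (median 1.03). The NMDA receptor subunit Grin3a, which marks somatostatin interneurons, stood at 161, 857 and 1779 CPM at E16.5, P1 and P5 (5.31-fold higher at P1, 5.08 to 5.55). Grin2a stood at 21.9 and 129 CPM and Grin2d at 14.2 and 68.6 CPM. Among AMPA receptor subunits, Gria2 (833 and 1014 CPM) and Gria4 (293 and 262 CPM) lay within 2-fold.

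Of 27 measured vesicle release genes, 8 were at least 2-fold higher and 0 lower, and 26 had a ratio above 0, or 25 after scaling by the median ratio, which turned Syn2 (median of the list 0.81). The complexin Cplx2, which clamps fusion, stood at 143 and 418 CPM and reached 1324 CPM at P5. Rab3a (414 and 371 CPM), a vesicle GTPase, and Syn2 (281 and 282 CPM), a synapsin, lay near equality. Of the 9 genes for GABA synthesis, loading and uptake, 2 were at least 2-fold higher and 0 lower, a count too small to set against the 10.4% of all genes. Slc12a5, the chloride exporter KCC2 that makes GABA inhibitory, stood at 76.8, 187 and 280 CPM at the 3 ages (2.44-fold higher at P1, 2.26 to 2.63), whereas the chloride importer Slc12a2 was at 20.7 and 23.4 CPM. Slc32a1, the vesicular GABA transporter, was at 330 and 256 CPM, and Gad1 at 316 and 335 CPM.

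All 32 measured sodium, potassium and calcium channel genes had a ratio above 0, and 12 were at least 2-fold higher (median 0.82). The lowest, Scn2b, had a ratio of 0.17. Kcnip2, which modulates A-type potassium channels, stood at 4.54, 48.9 and 86.3 CPM (10.8-fold higher at P1, 8.44 to 13.9), and its partner channel Kcnd2 at 52.7 and 166 CPM. Kcnq3, which carries the M current, stood at 39.8 and 186 CPM, and Scn2a, a voltage-gated sodium channel, at 114 and 332 CPM. Among 21 calcium-calmodulin genes, 10 were at least 2-fold higher and 0 lower (median 0.94). The adenylyl cyclases Adcy2 (3.01 and 39.2 CPM) and Adcy1 (87.0 and 501 CPM) and the kinase Prkcb (5.42 and 34.0 CPM) led them.

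Of 17 measured neuropeptide and subtype genes, 8 were at least 2-fold higher and 1 lower. Sst stood at 3359 CPM at E16.5, 1751 CPM at P1 and 1622 CPM at P5 (1.92-fold lower at P1, 1.88 to 1.96), short of 2-fold. Cort, the peptide cortistatin, stood at 79.3, 203 and 639 CPM, Crhbp, which binds corticotropin-releasing hormone, at 19.8, 65.1 and 131 CPM, and Rbp4, a retinol-binding protein of deep-layer interneurons, at 8.59, 56.6 and 178 CPM. Reln, reelin, stood at 167 and 393 CPM. Calb1, the calcium buffer calbindin, was 2.04-fold lower (335 and 164 CPM, 1.91 to 2.18). Npy was at 1893 and 1397 CPM.

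Of 19 measured transcription factors of the MGE lineage, 1 was at least 2-fold higher and 4 lower (median -0.33), against 10.4% and 3.43% of all genes. Lhx6 (564 and 973 CPM) is among the 19, and its level is not read, since the rule required an Lhx6 UMI. Maf, a factor of MGE interneurons, stood at 741 CPM at E16.5, 2138 CPM at P1 and 648 CPM at P5, so that it was high at P1 alone. Dlx5, which drives early interneuron fate, was at 171 and 76.2 CPM, and Nkx2-1, which specifies the MGE, at 7.61 and 2.90 CPM. In the list of SOX and postnatal factors 5 of 25 were higher and 5 lower. Sox11 (4227, 2089 and 443 CPM at the 3 ages) and Sox4 (2213, 818 and 305 CPM), factors of newborn neurons, were lower at each later age. Mef2c, an activity-dependent factor of postmitotic neurons, stood at 1119 and 2648 CPM (2.37-fold higher, 2.32 to 2.42) and at 1572 CPM at P5. Nfix (1.31 and 22.2 CPM) and Klf9 (0.985, 10.2 and 55.7 CPM), a target of thyroid hormone, were higher, and Nfia (15.9 and 3.48 CPM) lower.

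Migration and guidance genes were mixed, with 7 of 28 at least 2-fold higher and 2 lower (median 0.53). Plxna4, a semaphorin receptor, stood at 59.9 and 179 CPM and Unc5d, a netrin receptor, at 50.4 and 138 CPM, while the ephrin receptor Epha5 was at 1411 and 687 CPM. The chemokine receptors that guide tangential migration were still expressed after birth: Cxcr4 stood at 101 CPM at E16.5 and 87.1 CPM at P1 but 4.30 CPM at P5, and Ackr3 at 152, 98.5 and 6.02 CPM. Embryonic RNA-binding proteins had a median of -0.66 (0 of 11 higher and 2 lower). Igf2bp1 stood at 31.6 CPM at E16.5 and 3.05 CPM at P1 (10.4-fold lower, 6.72 to 16.9) and Igf2bp2 at 36.0 and 6.82 CPM; both bind growth-related mRNAs in the embryo. The neuronal splicing regulators moved both ways, mostly within 2-fold (0 of 22 higher, 1 lower, ratios from -1.47 to 0.91). The lower one was Khdrbs2 (90.9 and 32.2 CPM). Short of 2-fold, Celf4 rose from 1001 to 1880 CPM and Srrm4 fell from 242 to 132 CPM. Of the 9 measured cell cycle genes, 11 listed ones being under the minimum, Ccnd2 was higher (3.39 and 13.6 CPM) and Cdkn1c lower.

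Lists of metabolism and hormone response gave smaller counts. Over all genes 10.4% were higher and 3.43% lower, and counts of a few members near these shares are not read as a result about a list. In cholesterol synthesis 5 of 19 genes were at least 2-fold higher and 0 lower (median 0.71), with Insig1, a sterol sensor, at 10.8 and 46.0 CPM. Of 11 measured hormone response genes 3 were higher, among them Thrb, a thyroid hormone receptor, at 17.4, 84.7 and 174 CPM. Of 20 imprinted genes 4 were higher and 3 lower, with Meg3, a long noncoding RNA, at 7897, 12497 and 21814 CPM and Nnat, neuronatin, at 5888 and 2566 CPM. Of 18 cell death regulators 1 was higher, Hrk (4.05 and 11.3 CPM), a killer of the BCL2 family, and Bax stood at 301 and 154 CPM. In ER stress 1 of 16 was higher. In nuclear oxidative phosphorylation 0 of 29 were higher and 1 was lower (median -0.42). In glycolysis and hypoxia response 3 of 24 were higher and 5 lower: Pfkp (69.9 and 273 CPM) and the neuronal enolase Eno2 (14.1 and 41.8 CPM) were high at P1, and Gapdh, Eno1 and Ldhb low. Gapdh, Eno1 and Ldhb each have near-identical copies between which reads could be split, so their counts are uncertain.

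Several immediate-early genes, which neurons induce on stimulation and which dissociation can also induce, were lower at P1. Of 15 measured, 1 was at least 2-fold higher and 6 lower (median -0.46). Fos stood at 110 CPM at E16.5, 10.2 CPM at P1 and 24.5 CPM at P5 (10.9-fold lower at P1, 8.56 to 14.0). Fosb had 469 UMIs at E16.5 and 2 at P1, a ratio of 88.5-fold (24.4 to 733). Junb stood at 72.8, 9.0 and 8.11 CPM and Dusp1, a phosphatase of MAP kinases, at 70.4, 19.9 and 8.61 CPM. Jun (94.9 and 83.0 CPM) and Egr1 (14.0 and 10.7 CPM) lay within 2-fold, and Fosl2 (7.28 and 32.1 CPM) was higher. The part of dissociation in these values was not tested. With only cells under 5% mitochondrial UMIs the median of the list was -1.14.

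The promoters of Fosb, Fos, Junb and Dusp1, chosen after their values were seen, are shown as 4 of the 6 lower members of the list; each run is the 250 bases before the start site from RefSeq, on the strand of the gene. The positions, on GRCm38.p6, are chr7:19310046-19310295 (minus) for Fosb, chr12:85473640-85473889 (plus) for Fos, chr8:84978749-84978998 (minus) for Junb and chr17:26508473-26508722 (minus) for Dusp1. Capitals mark the cAMP response element (CRE) TGACGTCA and its short form TGACG, searched on both strands.
Fosb: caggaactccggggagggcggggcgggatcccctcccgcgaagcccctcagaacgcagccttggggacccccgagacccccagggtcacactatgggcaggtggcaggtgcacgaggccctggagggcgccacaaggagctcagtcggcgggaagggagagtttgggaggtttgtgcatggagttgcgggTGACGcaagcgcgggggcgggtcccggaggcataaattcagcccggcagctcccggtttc
Fos: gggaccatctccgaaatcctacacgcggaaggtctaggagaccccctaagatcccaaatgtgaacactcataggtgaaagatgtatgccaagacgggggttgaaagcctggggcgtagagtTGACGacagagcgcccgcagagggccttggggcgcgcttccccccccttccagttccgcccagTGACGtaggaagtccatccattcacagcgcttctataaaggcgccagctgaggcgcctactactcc
Junb: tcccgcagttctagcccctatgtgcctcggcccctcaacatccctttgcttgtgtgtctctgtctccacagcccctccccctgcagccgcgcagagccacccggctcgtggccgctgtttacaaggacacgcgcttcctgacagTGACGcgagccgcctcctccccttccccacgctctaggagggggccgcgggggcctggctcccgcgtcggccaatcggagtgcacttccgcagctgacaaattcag
Dusp1: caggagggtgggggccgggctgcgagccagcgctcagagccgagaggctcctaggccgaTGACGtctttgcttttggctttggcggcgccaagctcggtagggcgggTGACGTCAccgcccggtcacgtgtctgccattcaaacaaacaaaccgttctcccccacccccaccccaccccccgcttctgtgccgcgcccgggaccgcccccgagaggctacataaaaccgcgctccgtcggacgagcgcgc

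Of the 15 measured genes of the list, 13 had a promoter in the RefSeq set. The whole CRE was found in Dusp1 alone of the 13, ending 135 bases before its start, and the short form in 6 of 13. Across all 27025 promoters, 1.62% held the CRE and 17.9% the short form, against 3.13% and 29.0% of the promoters of 8152 measured genes. Of the promoters of genes at least 2-fold lower at P1, 3.53% (9 of 255) held the CRE, and of those at least 2-fold higher, 2.08%. The short form was in 25.5% of the lower and 23.8% of the higher ones, both below the 29.0% of measured genes. No link between these motifs and the change was tested. The CArG box, a serum response element, was in 0 of the 13 and in 1.40% of all promoters. Only the 250 bases before each start were searched, and Egr1, a measured member of the list, had no promoter entry. The 0 of 13 therefore cannot show whether these genes have the box outside the bases searched. The MEF2 box was in 1 of the 13, in 6 of 816 promoters of higher genes and in 29 of the 8152.

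Some of the largest ratios belonged to genes that set P1 apart from both other libraries. Pabpc1, the poly(A)-binding protein of the cytoplasm, stood at 281 CPM at E16.5, 1848 CPM at P1 and 230 CPM at P5. The noncoding RNA Bc1 stood at 2.03, 96.5 and 11.2 CPM, Wdr89 at 22.5, 167 and 24.2 CPM, the ribosomal retrogene Rps27rt at 20.0, 137 and 20.0 CPM, and the gene model B930036N10Rik at 9.09, 67.6 and 7.99 CPM. In the other direction Gapdh stood at 1081, 291 and 969 CPM, Ftl1, the ferritin light chain, at 3272, 1046 and 2466 CPM, Eno1 at 68.6, 12 and 33.3 CPM, and Gipc1, an adaptor protein, at 66.7, 12.2 and 46.5 CPM. Ubb, a ubiquitin gene, was instead low at both later ages (3989, 379 and 456 CPM). Genes whose last 500 transcript bases closely match another gene made up 4.35% of those measured, 3.50% of the higher and 14.8% of the lower genes; Pabpc1, Bc1, Wdr89, Rps27rt, Gapdh, Ftl1, Eno1 and Ubb are among them, and their counts are uncertain where reads could be split. P1 was processed with another Cell Ranger version than E16.5 and P5. The part of processing in these values was not tested.

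**Figure D4:**
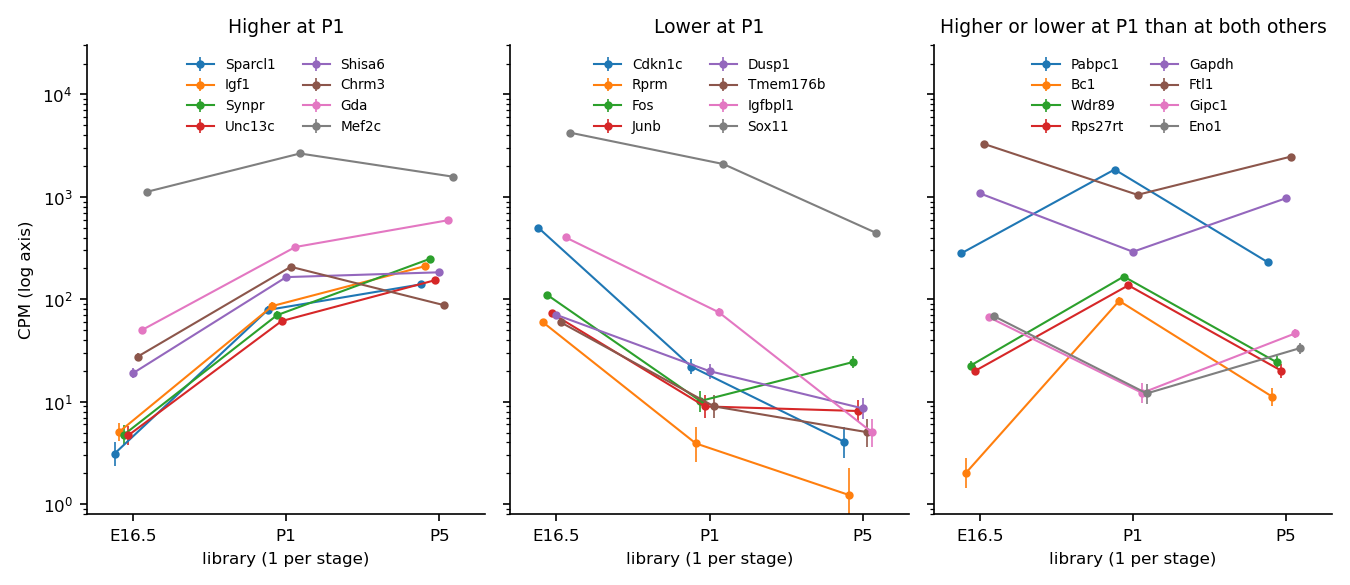
Level in interneurons (vertical, CPM, log axis) at E16.5, P1 and P5, 1 library per stage, for genes higher at P1, genes lower at P1, and genes for which P1 stands outside both other libraries. Bars are 95% Poisson intervals; Synpr goes from 4.76 to 69.9 and 248 CPM, Cdkn1c from 502 to 22.1 and 4.06 CPM, and Pabpc1 from 281 to 1848 and back to 230 CPM.

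Cells with a Nos1 UMI and without Neurod6, which the rule leaves out, numbered 52 at E16.5 and 417 at P1, and their levels are set beside those of the interneurons without a test. Igf1 went from 2.81 to 127 CPM in them (5.09 to 85.9 CPM in the interneurons), Cdkn1c from 705 to 9.33 CPM, Fos from 180 to 5.60 CPM and Pabpc1 from 233 to 1656 CPM. Mef2c stood at 542 and 848 CPM in these cells and at 1119 and 2648 CPM in the interneurons, and Npy at 19928 and 29929 CPM against 1893 and 1397 CPM. With 52 cells at E16.5 several of these values rest on few UMIs: the 2.81 CPM of Igf1 is 1 UMI.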

How the data were processed

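The files are 10x Genomics Chromium matrices of sorted neocortical cells, 1 library per stage. The authors made the deposited counts with Cell Ranger 3.1.0 (E16.5, P5) and 3.0.2 (P1), per the file headers, and STAR on GRCm38, per the submitters' processing notes; each value is a raw UMI count per gene and cell. No doublet caller was run here; an alternative leaves out the 5% of cells with most UMIs.

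Cells were selected by the stated rule and UMIs summed per library. CPM left out 13 mitochondrial and 93 ribosomal protein genes. Genes with a mean of at least 5 CPM were measured, 1 CPM was added before the log, and genes past 2-fold were counted; with 1 library per stage no test was run. The cells and the 24 pathway and 9 cell type lists were chosen with earlier results of these data known. Named genes were the 15 highest and 15 lowest ratios among genes reaching 50 CPM, the 10 largest differences in CPM each way, up to 3 at each end of a list, list members needed to describe it, and markers; sex-linked genes were not ranked. The short form of the CRE and the order of text within lists were chosen after values were seen. Near-identical copies were searched with blastn 2.17.0 (97% identity over at least 90 of the last 500 bases) in GENCODE M21, which also gave the GRCm38 gene positions. Python 3.11.15, numpy 2.4.6, scipy 1.17.1 and pandas 2.3.3 were used, and the code was tested on simulated data. In all 19 planned and 3 added alternatives were run.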

Additional observations from a re-analysis of the deposited data

Results flagged for a closer look

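For 4 genes the interneurons and the Nos1 cells of the same 2 libraries moved in opposite directions, each by at least 2-fold. No share over all measured genes is given beside this count, so the 4 are shown as single genes and not read as a set. The difference was not tested, since each group of cells has 1 library per stage and the Nos1 cells at E16.5 number 52. Khdrbs2, a splicing regulator, had a log2 ratio of -1.47 in interneurons (90.9 and 32.2 CPM) and 1.19 in Nos1 cells (45.0 and 104 CPM, from 16 and 167 UMIs). Cort had a log2 ratio of 1.34 in interneurons (79.3 and 203 CPM) and -1.88 in Nos1 cells (211 and 56.6 CPM, 75 and 91 UMIs). Ppargc1a, a regulator of mitochondrial genes, had a log2 ratio of 1.71 in interneurons (34.6 and 115 CPM) and -1.0 in Nos1 cells (75.9 and 37.3 CPM, 27 and 60 UMIs). Tac1, the precursor of substance P, had a log2 ratio of 1.08 in interneurons (24.5 and 53.0 CPM) and -4.35 in Nos1 cells (197 and 8.71 CPM, 70 and 14 UMIs).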

How the results depend on the processing

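With a minimum of 20 CPM, 645 of the 7501 genes then measured were higher, against 1087 of 10462 in the main setting. Scaling by the median ratio gave 602 lower genes. At 1.5-fold 2522 genes were higher and 1218 lower, and at 4-fold 164 and 32, fewer by construction. With P5 in place of P1, chosen after seeing the data, 1847 were higher and 1536 lower, and 778 of the 1087 and 246 of the 359 were among them. The other alternatives stayed within 1.5 times of both counts, including the one without genes that have a near-identical copy (1049 and 306). Under 5% mitochondrial UMIs only 422 of 1594 P1 cells remained; the counts were 1145 and 389, but 754 of the 1087 and 240 of the 359 genes stayed past 2-fold. The share of cells taken by the rule was 56.5% at E16.5 and 61.1% at P1 in thinned cells. With P5, 72 of the genes past 2-fold turned direction, among the named ones B930036N10Rik (-0.17), Pabpc1 (-0.29), Maf (-0.19) and Slit3 (0.15), and some named genes under 2-fold turned too, such as Rab3a (1.12), Slc32a1 (0.64) and Cntn5 (0.14). Without the exclusion by Nos1 and Neurod6, 3 genes past 2-fold turned, with Dach1 (0.70) named; the cause was not tested. No paired analysis was possible because each stage has 1 library and no test was run, and for the same reason no replicate could be left out. Depth limits low genes most: 0 UMIs allows up to 0.164 CPM at E16.5 and 0.435 CPM at P1.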
